A study of Mus musculus with 9 samples.

Results

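The 479 rows described here are transcribed loci that carry an assembled identifier, XLOC_ and a number, instead of an annotated gene in the deposited read count table of mouse back skin. They were selected on their summed read counts, 90 or more over the 9 libraries, which took 479 of 1443 assembled loci in a table with 56859 named rows. Libraries came from shaved back skin of WT SPF Balb/c mice aged 6 to 8 weeks, in 3 groups of 3: 7 days of imiquimod (IMQ) plus 2 days of Bergapten gel, 7 days of IMQ, and 7 days of vaseline. All mice were shaved, and 1.3 µg of total RNA went into each library. No IMQ group that received a gel without Bergapten is among the labels. Nor do they call the replicates separate animals, so the spread behind each p-value is that between these libraries and may be technical.

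An identifier with the XLOC prefix is a locus number written in transcript assembly. In this table it stands on rows without an annotated gene identifier. Such loci can be long noncoding RNAs, unannotated exons or ends of known genes, antisense transcripts, repeats, or genomic fragments. Antisense and divergent transcripts start or end close to a coding gene on the other strand, and divergent ones arise at the same promoter region. IMQ activates a Toll-like receptor and is applied to mouse skin to induce an inflammation that resembles psoriasis, with thickening of the epidermis. Bergapten is a plant furanocoumarin.

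Depth was similar across libraries, with 15855439 to 19862905 reads counted in IMQ with bergapten libraries, 18890579 to 19456060 in IMQ libraries and 16080479 to 18757911 in vaseline libraries. Epidermal markers were present in every group: all 8 keratinocyte markers were in the table, with a summed level of 24191 to 26802 CPM (reads per 1e6 counted reads, scaled for library size and composition) in IMQ with bergapten, 18771 to 26171 in IMQ and 7414 to 8116 in vaseline. The summed level of 10 skeletal muscle markers was 4535 to 4987 CPM in IMQ with bergapten, 4659 to 6433 in IMQ and 16560 to 17920 in vaseline. That of 8 fibroblast and matrix markers was 25765 to 33338, 9355 to 21953 and 107747 to 116119 CPM in the same groups. In bulk skin, fewer cells of a type and less RNA per cell cannot be told apart, and the part of these shifts in the results was not tested.

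The assembled loci lay outside every annotated row of the table. No member overlapped one, 280 lay within 10 kb of one, 177 lay 10 to 100 kb away, 16 lay farther, and 6 were on sequences without any annotated row. Their median span was 2656 bases, and the median gap to the nearest gene with a symbol was 13.477 kb, with 425 different nearest genes. Chromosome 4 held 47 members, chromosome X 26, chromosome Y 7 and unplaced scaffolds 8. For 27 members the nearest symbol was one carried by several rows, such as U6 or 5S_rRNA, so it names a kind of RNA and not 1 gene.

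Strand and structure went together. For 213 members the table gave no strand, and all 213 were 1 unbroken block, judged by the length behind the FPKM (the authors' measure of level per transcript length) lying within 1% of the span. Of the 266 members with a strand, 38 were 1 block, and in the others that length differed from the span by more. A total of 112 members lay within 10 kb of another assembled locus, so some neighbouring loci may be pieces of 1 transcript and are not independent. Whether counting used strand is not given in the sources used here, so reads of a locus that abuts a gene on the other strand cannot be told apart from that gene's reads.

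RefSeq lists genes that the table does not hold. In its gene order on GRCm38.p6, both flanking genes were found for 460 members, and between them it had no further gene for 275 and 1 or more genes absent from the table for 185. Among those 185, at least 1 lncRNA was listed for 141 and at least 1 protein-coding gene for 25. XLOC_021692, one of the highest members, lay between Lsm2 and Vars, where RefSeq lists D17H6S56E-5 as protein coding. Gene order does not show that a locus and a RefSeq gene in the same interval are the same transcript.

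No sequence of the assembled loci is shown, since their coordinates are on GRCm39 and no genome of that build was used here. The promoters of genes with a divergent locus close to their start bear on the pairs described later, and 4 such promoters follow, from RefSeq on GRCm38.p6, each from 250 bases before to 50 bases after the start. They belong to genes that had a divergent assembled locus within 1 kb of their start, with both the gene and the locus past the test in IMQ against vaseline. There were 9 such pairs, and 4 of them are printed: Ephx3, Fam120a, Myl6b and Vps4b, which matched by symbol. The others, Lbx1 among them, are not shown, so the 4 do not stand for all such promoters. Capitals mark the GC box GGGCGG read on either strand. CCAAT and the TATA box TATAAA were searched on both strands too and were in none of the 4 windows.
Ephx3 (chr17:32189421-32189720, minus strand): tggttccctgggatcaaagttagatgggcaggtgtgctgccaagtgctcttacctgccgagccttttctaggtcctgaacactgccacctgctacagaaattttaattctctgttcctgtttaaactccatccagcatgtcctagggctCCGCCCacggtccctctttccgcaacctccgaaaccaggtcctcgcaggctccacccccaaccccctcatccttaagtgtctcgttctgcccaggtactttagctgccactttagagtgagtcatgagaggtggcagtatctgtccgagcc
Vps4b (chr1:106796676-106796975, minus strand): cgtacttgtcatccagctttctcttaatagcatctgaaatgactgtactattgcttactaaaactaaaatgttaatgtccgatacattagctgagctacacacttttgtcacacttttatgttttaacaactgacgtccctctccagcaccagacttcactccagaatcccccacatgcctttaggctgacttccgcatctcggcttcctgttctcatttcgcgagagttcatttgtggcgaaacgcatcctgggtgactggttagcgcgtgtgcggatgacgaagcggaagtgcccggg
Myl6b (chr10:128498636-128498935, minus strand): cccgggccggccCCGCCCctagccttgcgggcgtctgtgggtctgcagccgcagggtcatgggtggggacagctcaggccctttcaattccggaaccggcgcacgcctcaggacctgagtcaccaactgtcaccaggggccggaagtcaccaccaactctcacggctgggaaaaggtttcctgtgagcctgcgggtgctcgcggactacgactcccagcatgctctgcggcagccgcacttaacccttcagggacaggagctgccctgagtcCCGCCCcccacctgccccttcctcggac
Fam120a (chr13:48968011-48968310, minus strand): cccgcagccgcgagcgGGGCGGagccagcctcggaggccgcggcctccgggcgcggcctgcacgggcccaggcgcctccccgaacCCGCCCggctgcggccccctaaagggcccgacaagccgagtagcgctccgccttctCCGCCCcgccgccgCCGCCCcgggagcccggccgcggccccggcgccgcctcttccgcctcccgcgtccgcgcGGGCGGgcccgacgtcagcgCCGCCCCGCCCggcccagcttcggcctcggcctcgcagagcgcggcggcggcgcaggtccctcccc
The GC box was found 1 time in Ephx3, 7 times in Fam120a, 2 times in Myl6b and 0 times in Vps4b, with overlapping matches counted. Over all 32851 promoters of the same length, 35.7% held GGGCGG, 37.4% held CCAAT and 13.6% held TATAAA. CG pairs numbered 8 in Ephx3, 15 in Vps4b, 20 in Myl6b and 54 in Fam120a, against a median of 7 over all promoters. A match is a description of the letters and not a bound site.

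Per length, assembled loci were low. Their median FPKM over the 9 libraries was 1.14, against 6.57 for the 16809 annotated rows that also had at least 90 counts. In CPM, 135 members averaged under 1, 63 averaged 10 or more and 7 averaged 100 or more. The 2 members with the most counts held 31.7% of all member counts and the 10 with the most held 55.8%.

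XLOC_007019 (chr11:86702553-86707284, plus strand on GRCm39, as all locus coordinates here) took the most reads of the loci, and its mean level per length was 173 FPKM. It lies 3981 bases upstream of Dhx40, an RNA helicase gene, on the other strand, and had 588, 883 and 781 CPM in the IMQ with bergapten libraries, 1011, 1776 and 1146 in the IMQ libraries and 318, 368 and 398 in the vaseline libraries. Every IMQ library was above every IMQ with bergapten library, and both groups were above vaseline throughout. It rose in IMQ against vaseline (log2 fold change 1.86, SE 0.23, adjusted p = 0.000222), and IMQ with bergapten against IMQ did not pass (log2 fold change -0.80, SE 0.22, adjusted p = 0.0748). XLOC_023746 (chr19:4111045-4116610, plus strand) lies 1476 bases upstream of Gstp3, a glutathione S-transferase gene, on the other strand. It had 257, 411 and 343 CPM in the IMQ with bergapten libraries, 792, 1338 and 736 in the IMQ libraries and 231, 267 and 292 in the vaseline libraries. IMQ stood apart from both other groups, which overlapped, and the rise over vaseline passed (log2 fold change 1.86, SE 0.25, adjusted p = 0.000475). Its mean was 92.8 FPKM. Both loci were highest in IMQ replicate 2. Gstp3 itself had 6.87 ± 1.05 CPM in IMQ with bergapten, 7.26 ± 1.07 in IMQ and 10.2 ± 1.11 in vaseline (SD, n = 3 each).

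XLOC_021692 (chr17:35215695-35219644, minus strand) begins 319 bases upstream of Vars, the valyl-tRNA synthetase gene, on the other strand. It had 116, 144 and 151 CPM in the IMQ with bergapten libraries, 137, 137 and 136 in the IMQ libraries and 67.5, 53.4 and 50.7 in the vaseline libraries, so both groups with IMQ were above vaseline and overlapped each other. It rose in IMQ against vaseline (log2 fold change 1.26, SE 0.13, adjusted p = 4.29e-05). XLOC_052639 (chrX:169097798-169105588, plus strand) lies 768 bases upstream of Asmt, which encodes the last enzyme of melatonin synthesis, on the same strand. It had 88.1, 53.0 and 75.0 CPM in the IMQ with bergapten libraries, 86.3, 74.3 and 68.4 in the IMQ libraries and 65.9, 93.0 and 106 in the vaseline libraries, and the 3 groups overlapped. Asmt itself had a read in 1 library only, IMQ replicate 1. XLOC_051258, on an unplaced scaffold with no named gene, had 20.3, 81.1 and 90.4 CPM in the IMQ with bergapten libraries, 69.0, 83.1 and 69.3 in the IMQ libraries and 6.02, 45.8 and 59.4 in the vaseline libraries, with replicate 1 low in IMQ with bergapten and in vaseline, and passed no test. The remaining 5 of the 10 loci with the highest mean CPM are XLOC_031018, described with IMQ, and XLOC_031751, XLOC_051314, XLOC_048341 and XLOC_041089, which were high in 1 library.

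**Figure D1:**
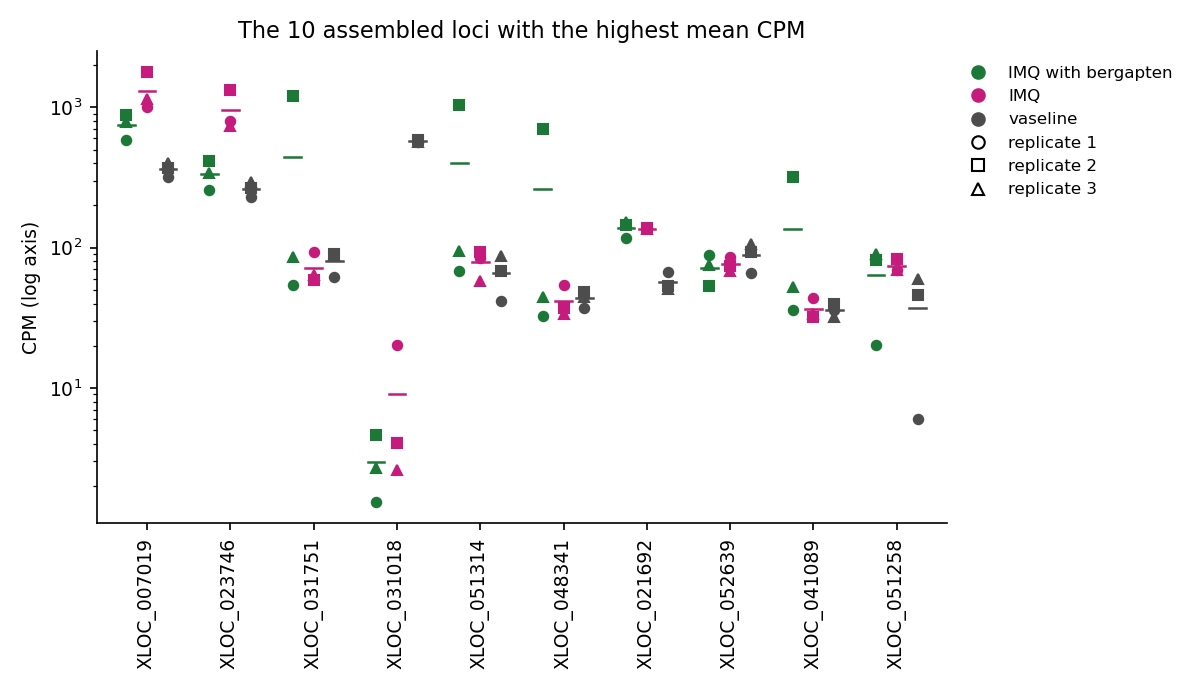
CPM of the 10 assembled loci with the highest mean, on a log axis, with 1 point per library, marker shape for the replicate and a bar at each group mean. XLOC_031018 is between 565 and 583 CPM in vaseline and at 20.3 CPM or lower in the other 6 libraries, and 4 loci have a single high point in IMQ with bergapten replicate 2.

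A single library set the level of 9 loci. In IMQ with bergapten replicate 2 they stood more than 3 times above each of the other 8 libraries, a rule chosen after their values were seen. XLOC_031751 (chr3:5925393-5925886, no strand given) had 53.8, 1195 and 86.4 CPM in the IMQ with bergapten libraries, 92.9, 59.1 and 63.8 in the IMQ libraries and 61.6, 89.6 and 88.2 in the vaseline libraries. XLOC_051314, on an unplaced scaffold, had 68.2, 1036 and 95.0 CPM in the IMQ with bergapten libraries, 83.9, 93.6 and 57.6 in the IMQ libraries and 41.7, 68.7 and 87.4 in the vaseline libraries. XLOC_048341 (chr8:15569775-15570125, no strand given) had 32.8, 702 and 44.7 CPM in the IMQ with bergapten libraries, 54.2, 37.4 and 33.7 in the IMQ libraries and 37.1, 48.6 and 44.8 in the vaseline libraries. These 3 loci were 10.9 to 12.9 times higher in that library than in the next highest one. Rn18s, the 18S ribosomal RNA gene, had 17687 CPM in the same library and 1777 to 2610 CPM in the other 8. Whether these loci hold ribosomal RNA was not tested. XLOC_041089 and XLOC_023715 peaked at 321 and 237 CPM there, against at most 52.4 and 18.2 CPM elsewhere, and the other 4 (XLOC_009112, XLOC_041109, XLOC_018427 and XLOC_027178) peaked under 10 CPM.

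**Figure D2:**
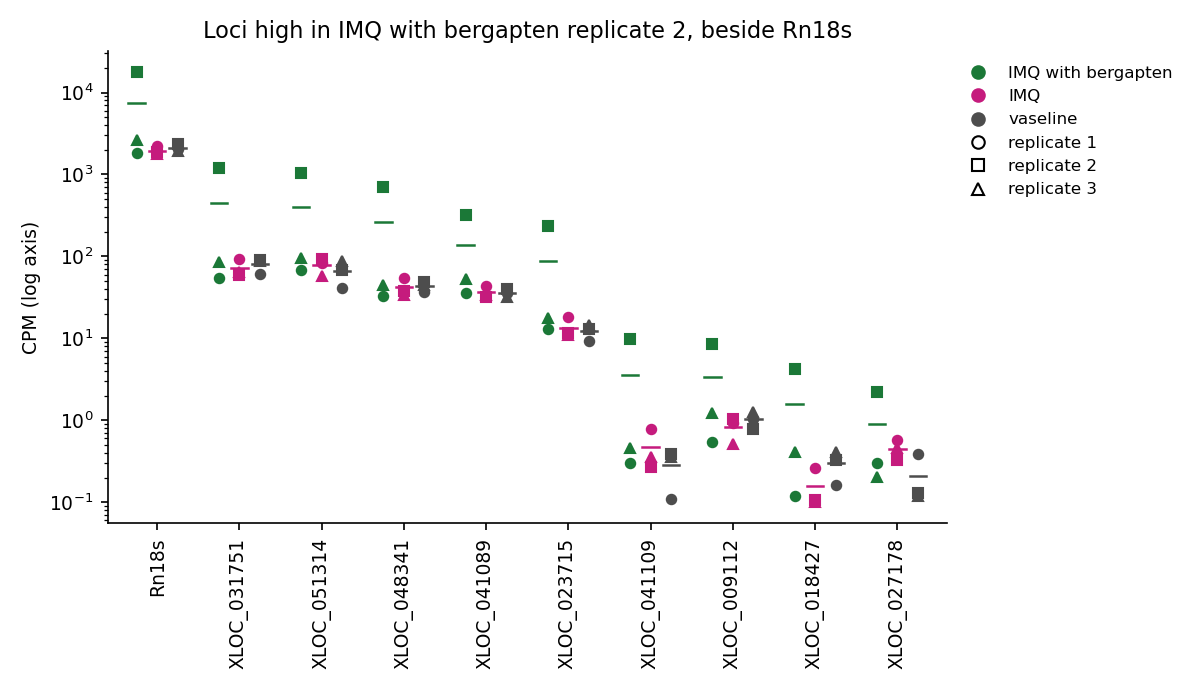
CPM of Rn18s and of the 9 loci that were over 3 times higher in IMQ with bergapten replicate 2 than in any other library, on a log axis, with 1 point per library and a bar at each group mean. The green square of each column is the high library, and the other 8 points of a column lie more than 3 times below it.

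That library moved the share of all counted reads that fell on members. The share was 0.307%, 0.679% and 0.328% in the IMQ with bergapten libraries, 0.453%, 0.588% and 0.434% in the IMQ libraries, and 0.334%, 0.326% and 0.345% in the vaseline libraries. IMQ did not overlap vaseline, with a mean difference of 0.157 percentage points (exact two-sided permutation p = 0.1, the smallest that 3 against 3 allows). IMQ with bergapten differed from IMQ by -0.0540 points (exact p = 0.6), and by -0.166 points without the 9 loci, which has no test because those loci were picked for being high in that group. Against vaseline it differed by 0.103 points (exact p = 0.9), and by -0.0103 points without the 9 loci. The counts in this share are those that chose the members. The design does not allow a p under 0.1.

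With IMQ, assembled loci changed in both directions. Of the 474 members that passed the filter on low counts, 100 rose and 69 fell in IMQ against vaseline (edgeR quasi-likelihood test, adjusted p under 0.05 over all rows tested). That is 35.7% of members, where 43.2% of all 18005 rows passed, 23% of them higher and 20.2% lower. A call with at least a 2-fold difference was made for 146 members, or 30.8%, and for 18.3% of all rows. Members had a median level of 1.66 CPM, against 21.2 CPM for annotated rows with at least 90 counts. Rows with few counts need a larger difference to pass, so these shares cannot be read as a stronger response of assembled loci. The median log2 fold change was 0.18 over members tested and 0.03 over all rows. The 2 groups did not overlap for 212 members, or 44.7%, against 52.3% of all rows. Leaving out vaseline replicate 3 reduced the 100 rises to 66 and leaving out vaseline replicate 2 to 67, and the other 4 fits without 1 library gave 81 to 97. The 5 members not tested were XLOC_018427, XLOC_027178, XLOC_028924, XLOC_041109 and XLOC_051198, of which 3 were highest in IMQ with bergapten replicate 2 and the other two, XLOC_028924 and XLOC_051198, in vaseline replicate 3.

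Of the 209 loci without a strand that were tested, 43 (20.6%) rose and 12 (5.74%) fell, against 23% and 20.2% of all rows, with a median log2 fold change of 0.43. Of the 265 with a strand, 57 rose and 57 fell (21.5% each), with a median of -0.01. The excess of rises among loci without a strand was not seen in both groups with IMQ. In IMQ with bergapten against vaseline, 22 of these 209 were higher and 27 lower, with a median of 0.13. Of the 265 with a strand, 45 were higher and 63 lower there, with a median of -0.09. In IMQ with bergapten against IMQ, the medians were -0.47 without a strand and -0.06 with one. Whether the excess rests on the IMQ libraries was not tested. The difference between loci with and without a strand was not tested either, since loci are not replicates of a condition.

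**Figure D3:**
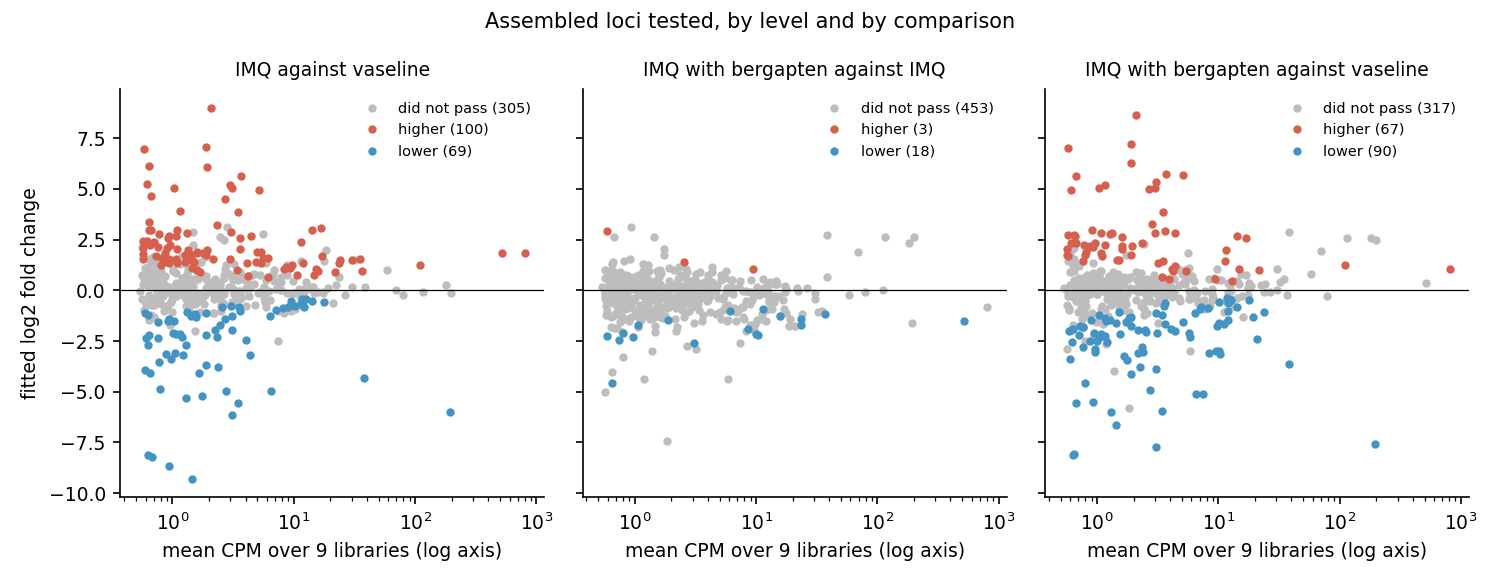
Fitted log2 fold change of the 474 assembled loci tested against their mean CPM (log axis), in IMQ against vaseline, IMQ with bergapten against IMQ, and IMQ with bergapten against vaseline. Coloured points passed an adjusted p under 0.05, with 100 higher and 69 lower in the left panel, 3 and 18 in the middle and 67 and 90 on the right. Fitted sizes of loci without counts in a group are not bounds.

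Loci at or near 0 in a group passed the threshold of 90 counts through the groups where they were high, so their folds and p-values, here and in the falls below, describe loci that were selected to differ. Several rises were from no or almost no reads in vaseline. XLOC_029857 (chr3:104649564-104653276, plus strand) had 1.97, 2.28 and 3.97 CPM in the IMQ with bergapten libraries, 4.10, 0.754 and 5.68 in the IMQ libraries and 0, 0 and 0 in the vaseline libraries. With 0 counts in vaseline it was raised at least 59.9-fold in IMQ, set against 3 counts over the whole group (adjusted p = 0.00307). Its nearest named gene, Tafa3, which encodes a secreted chemokine-like protein and lies 21446 bases away on the other strand, fell (log2 fold change -2.70, SE 0.41, adjusted p = 0.000525). XLOC_006548 (chr11:57727075-57732770, plus strand), 3431 bases upstream of the transcription factor gene Hand1 on the other strand, also had 0 counts in vaseline. It had 0.716, 0.844 and 1.07 CPM in the IMQ with bergapten libraries, 0.779, 0.377 and 1.42 in the IMQ libraries and 0, 0 and 0 in the vaseline libraries, a rise of at least 14.6-fold in IMQ (adjusted p = 0.00171). Its fitted log2 fold change, which is no bound, was 6.99 over all libraries and 6.40 without IMQ replicate 3.

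XLOC_032142 (chr4:45586523-45590363, plus strand) lies 54053 bases from Shb, an adaptor protein gene of receptor signalling, and had 1.73, 2.18 and 2.29 CPM in the IMQ with bergapten libraries, 3.84, 1.40 and 5.58 in the IMQ libraries and 0.0548, 0 and 0 in the vaseline libraries. With 1 vaseline count in all, its ratio of summed counts was 184-fold higher (95% counting interval 32.7 to 7302), adjusted p = 0.00011. Shb rose as well (log2 fold change 1.52, SE 0.15, adjusted p = 2.92e-05). XLOC_050457 (chr9:62906208-62913498, minus strand), upstream of the SUMO ligase gene Pias1 on its strand, had 0.119, 0.0993 and 0 CPM in the IMQ with bergapten libraries, 2.34, 2.64 and 0.558 in the IMQ libraries and 0, 0.0653 and 0 in the vaseline libraries. It was 92.0-fold higher (95% counting interval 16.2 to 3668) in IMQ than in vaseline, adjusted p = 0.00112, and Pias1 had a log2 fold change of 0.27 that did not pass (adjusted p = 0.16). Both loci varied several-fold among the IMQ libraries yet stayed above every vaseline library. Their vaseline reads, 1 each, came from vaseline replicate 1 and vaseline replicate 2, and without that library the group was at 0. These intervals cover counting error only.

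XLOC_003325 (chr1:190866846-190872322, minus strand) lies between Batf3, a dendritic cell transcription factor gene, and Fam71a. It had 4.65, 6.50 and 6.06 CPM in the IMQ with bergapten libraries, 4.36, 4.09 and 7.31 in the IMQ libraries and 0.0548, 0.196 and 0.0594 in the vaseline libraries (log2 fold change 5.63, SE 0.46, adjusted p = 1.16e-05), and its log2 fold change was 6.34 without vaseline replicate 2. XLOC_014047 (chr13:23019574-23021718, no strand given), in a cluster of vomeronasal receptor genes next to Vmn1r210, had 4.24, 4.62 and 2.85 CPM in the IMQ with bergapten libraries, 2.28, 1.56 and 1.62 in the IMQ libraries and 0, 0 and 0.0594 in the vaseline libraries, and was 92.0-fold higher (95% counting interval 16.2 to 3668) in IMQ, adjusted p = 5.09e-05. Its only vaseline read was in vaseline replicate 3. XLOC_012014 and XLOC_012015 lie in tandem on the plus strand of chromosome 13, beyond the end of Ofcc1 on the other strand, and may be 1 transcript. XLOC_012015 (chr13:40078198-40092528, plus strand) had 4.30, 3.62 and 4.63 CPM in the IMQ with bergapten libraries, 4.77, 2.75 and 6.50 in the IMQ libraries and 0.0548, 0.131 and 0.178 in the vaseline libraries (log2 fold change 5.21, SE 0.48, adjusted p = 2.23e-05). XLOC_012014 showed the same order of groups, with 0.820 ± 0.452 CPM in IMQ with bergapten, 1.00 ± 0.526 in IMQ and 0.0218 ± 0.0377 in vaseline (SD, n = 3 each), and its only vaseline read was in vaseline replicate 2.

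Among the falls, 4 loci had no read in any IMQ library, and all 4 reached 90 counts through vaseline alone. XLOC_037468 (chr5:115883276-115890046, minus strand), 13596 bases upstream of Bicdl1 on its strand, had 0.119, 0 and 0 CPM in the IMQ with bergapten libraries, 0, 0 and 0 in the IMQ libraries and 4.93, 4.11 and 3.80 in the vaseline libraries, and was at least 82.5-fold lower in IMQ (adjusted p = 8.64e-05). XLOC_040999 (chr6:140341309-140343854, minus strand), upstream of Plekha5 on the other strand, was at least 38.4-fold lower (adjusted p = 0.000121), with 0, 0 and 0 CPM in the IMQ libraries, against 2.03, 1.70 and 2.26 in the vaseline libraries. XLOC_050614 (chr9:77771443-77803368, minus strand), upstream of the fatty acid elongase gene Elovl5 on the other strand, was the one of the 4 without a read in IMQ with bergapten too. Its vaseline libraries had 1.64, 2.02 and 2.02 CPM, which made it at least 36.1-fold lower in IMQ (adjusted p = 0.000451). Elovl5 fell too (log2 fold change -0.60, SE 0.11, adjusted p = 0.0014).

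The fourth, XLOC_031017, sits beside XLOC_031018 in the epidermal cluster of chromosome 3, both on the minus strand between S100a7l2, an S100 calcium-binding protein gene, and Pglyrp3, which encodes a peptidoglycan recognition protein. RefSeq lists protein-coding genes in that interval, among them Gm36323 and Gm35185, which the table does not hold. XLOC_031018 (chr3:91133507-91135893, minus strand) had 1.55, 4.62 and 2.70 CPM in the IMQ with bergapten libraries, 20.3, 4.09 and 2.59 in the IMQ libraries and 567, 583 and 565 in the vaseline libraries. Every vaseline library stood far above the other 6. It fell by 5.99 on the log2 scale in IMQ (SE 0.80, adjusted p = 0.000739), and by 7.45 without IMQ replicate 1, the highest of the 3. XLOC_031017 (chr3:91102209-91105990, minus strand) had 0.179, 0 and 0 CPM in the IMQ with bergapten libraries, 0, 0 and 0 in the IMQ libraries and 3.01, 2.09 and 3.09 in the vaseline libraries, at least 52.9-fold lower in IMQ (adjusted p = 0.000388). S100a7l2 had no read in the 6 libraries with IMQ and 1.92, 2.68 and 1.66 CPM in the vaseline libraries, 104099 bases from the nearer locus.

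XLOC_030724 (chr3:59784787-59800554, minus strand) ends 53 bases beyond the end of Aadacl2fm3, an arylacetamide deacetylase family gene, on the other strand. It had 0.119, 0 and 0 CPM in the IMQ with bergapten libraries, 0.208, 0.108 and 0.0507 in the IMQ libraries and 7.72, 8.62 and 10.8 in the vaseline libraries (log2 fold change -6.14, SE 0.50, adjusted p = 1.17e-05). Aadacl2fm3 had 0.0597, 0 and 0 CPM in the IMQ with bergapten libraries, 0.104, 0 and 0 in the IMQ libraries and 6.24, 6.01 and 7.48 in the vaseline libraries, so both were near 0 in the 6 libraries with IMQ. Without IMQ replicate 1 the log2 fold change of XLOC_030724 was -6.76. XLOC_033085 on chromosome 4, 133 bases beyond Aadacl4fm5 of a related family, had 6.38, 12.3 and 5.35 CPM in the IMQ with bergapten libraries, 8.36, 3.23 and 3.50 in the IMQ libraries and 113, 97.0 and 93.6 in the vaseline libraries and fell with its neighbour (log2 fold change -4.33, SE 0.44, adjusted p = 0.000127). XLOC_050674 (chr9:83771346-83779249, minus strand) and XLOC_037272 (chr5:102597254-102601346, minus strand) fell to 0.210 ± 0.140 and 0.0877 ± 0.0816 CPM in IMQ, against 9.98 ± 3.72 and 3.75 ± 0.363 CPM in vaseline (SD, n = 3 each). Their nearest named genes are the mitotic kinase gene Ttk, which did not pass (adjusted p = 0.571), and Arhgap24, which fell by 0.69 on the log2 scale. Without IMQ replicate 2, XLOC_037272 had -6.01, where all libraries gave -5.32. The 8 largest rises and the 8 largest falls each kept their call when any 1 library was left out. They were picked as the largest called changes without overlap, so this is a description and not separate support.

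Few members had a gene of the skin marker lists as nearest neighbour. Of 16 genes of the IL-17 and IL-36 response, 14 were higher and 0 lower in IMQ against vaseline, and of 8 fibroblast and matrix genes 1 was higher and 7 were lower. XLOC_028848 (chr2:24052870-24053637, no strand given) lies 2339 bases beyond Il1f8, the gene of the cytokine IL-36 beta, and had 1.67, 1.34 and 0.917 CPM in the IMQ with bergapten libraries, 0.467, 0.269 and 1.27 in the IMQ libraries and 0.0548, 0 and 0 in the vaseline libraries. It was 34.2-fold higher (95% counting interval 5.78 to 1384) in IMQ, adjusted p = 0.00444, with its vaseline read in vaseline replicate 1. Its fitted log2 fold change, 4.67 over all libraries, was 3.79 without IMQ replicate 3, and Il1f8 rose (log2 fold change 3.75, SE 0.19, adjusted p = 9.91e-07). XLOC_028849 (chr2:24073190-24073714, no strand given), 2774 bases upstream of Il1f9, which encodes IL-36 gamma, had 1.37, 1.24 and 1.12 CPM in the IMQ with bergapten libraries, 1.04, 1.99 and 1.42 in the IMQ libraries and 1.53, 1.37 and 1.19 in the vaseline libraries, with overlapping groups and adjusted p = 0.784. Il1f9 itself rose by 3.86 on the log2 scale. XLOC_008541 (chr11:94768589-94782116, minus strand), 44934 bases from the collagen gene Col1a1, fell (log2 fold change -3.54, SE 0.48, adjusted p = 0.000243), with 0.119, 0.298 and 0.356 CPM in the IMQ with bergapten libraries, 0.104, 0.108 and 0.254 in the IMQ libraries and 1.64, 1.89 and 2.14 in the vaseline libraries. XLOC_000323, 17332 bases upstream of Col3a1, had 0.955, 0.596 and 0.560 CPM in the IMQ with bergapten libraries, 0, 0.915 and 1.42 in the IMQ libraries and 2.24, 3.66 and 3.56 in the vaseline libraries and did not pass in IMQ against vaseline (adjusted p = 0.0532), but did without IMQ replicate 3 (log2 fold change -2.81). XLOC_022349, near Epcam, an epithelial and Langerhans cell adhesion gene, did not pass either (adjusted p = 0.154), but did without IMQ replicate 2 (log2 fold change -1.88). XLOC_008111, 286834 bases from the myelin gene Pmp22, rose (log2 fold change 2.22, SE 0.42, adjusted p = 0.00198) where Pmp22 fell. The other 16 marker lists had no member as neighbour.

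Within 10 kb of a named gene, the share of loci with the gene's sign in IMQ against vaseline was highest for convergent loci. Both locus and gene were tested for 345 members, of which 194, or 56.2%, had the same sign as their nearest named gene in IMQ against vaseline. For annotated rows and their nearest named gene the share was 55.9%. The members' share was 62.3% without IMQ replicate 2, a setting for which the share of annotated rows is not given here. With all libraries the members' share was 61.3% of 186 members within 10 kb and 50.3% of 159 farther away. Where both the locus and the gene passed, signs matched for 33 of 39 pairs within 10 kb and for 24 of 38 pairs farther away, against 63.2% of annotated rows whose neighbour lay within 10 kb without overlap.

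Convergent loci, on the other strand beyond the end of the gene, matched in sign in 33 of 48 pairs, and in 15 of 16 where both passed. Pearson's r across these 48 loci was 0.80, a description over pairs that share the same 6 libraries and, where they abut, possibly reads. For divergent loci, on the other strand before the start, the sign matched in 30 of 49 pairs and in 11 of 12 where both passed, with r = 0.55 across the 49. Loci on the gene's own strand matched in 9 of 17 pairs upstream (r = 0.25) and in 10 of 18 downstream (r = -0.16). Loci without a strand matched in 32 of 54 (r = 0.19). In IMQ with bergapten against IMQ the order differed, with 15 of 18 on the gene's own strand downstream and 35 of 48 convergent. The differences between these classes were not tested. No share of annotated pairs by orientation is given here, so the order cannot be read as particular to assembled loci.

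**Figure D4:**
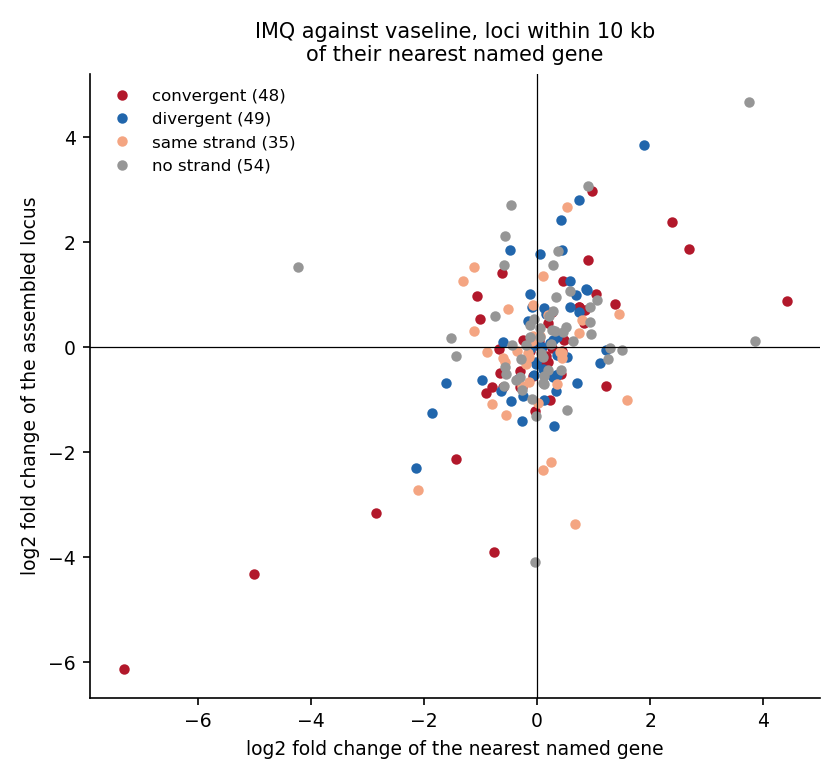
Log2 fold change in IMQ against vaseline of 186 assembled loci (vertical) and of their nearest named gene within 10 kb (horizontal), coloured by the strand of the locus relative to the gene. Across the 48 convergent pairs Pearson's r is 0.80, and across the 49 divergent pairs it is 0.55.

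Among the divergent pairs, XLOC_020494 (chr17:32408526-32413098, plus strand) begins 3 bases before the start of Ephx3, an epoxide hydrolase gene of the epidermis whose promoter is printed above. It had 0.477, 0.893 and 1.22 CPM in the IMQ with bergapten libraries, 1.76, 1.02 and 1.07 in the IMQ libraries and 0.164, 0.196 and 0.178 in the vaseline libraries (log2 fold change 2.80, SE 0.50, adjusted p = 0.00138). Ephx3 had 59.8, 67.8 and 64.6 CPM in the IMQ with bergapten libraries, 52.3, 51.5 and 68.6 in the IMQ libraries and 34.9, 35.9 and 31.9 in the vaseline libraries. Both were above vaseline in all 6 libraries with IMQ. XLOC_000909, 897 bases before Vps4b, a gene of endosomal sorting, rose with it (log2 fold change 2.42, SE 0.67, adjusted p = 0.0147, where Vps4b had 0.43). XLOC_004736, 552 bases before the myosin light chain gene Myl6b, fell with it (log2 fold change -1.24, SE 0.22, adjusted p = 0.00116, where Myl6b had -1.86). XLOC_024272, 345 bases before Lbx1, a homeobox gene of muscle precursors, fell with it too (log2 fold change -2.29, SE 0.45, adjusted p = 0.00233). The exception was XLOC_012107, 258 bases before Fam120a, an RNA-binding protein gene. It had 9.78, 10.7 and 11.3 CPM in the IMQ with bergapten libraries, 14.1, 14.3 and 10.9 in the IMQ libraries and 17.1, 20.2 and 19.4 in the vaseline libraries and fell (log2 fold change -0.53, SE 0.14, adjusted p = 0.0122), while Fam120a had 276 ± 11.3 CPM in IMQ and 215 ± 1.23 CPM in vaseline and rose (SD, n = 3 each).

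Of the convergent pairs, XLOC_024637 (chr19:11370175-11370683, minus strand) ends 21 bases beyond Ms4a4a, a gene of a macrophage membrane protein. It had 9.84, 12.1 and 9.78 CPM in the IMQ with bergapten libraries, 20.1, 20.1 and 19.6 in the IMQ libraries and 4.76, 4.18 and 2.49 in the vaseline libraries (log2 fold change 2.38, SE 0.22, adjusted p = 2.17e-05). Ms4a4a had 40.5, 52.4 and 37.1 CPM in the IMQ with bergapten libraries, 75.1, 82.3 and 62.1 in the IMQ libraries and 17.6, 12.3 and 12.1 in the vaseline libraries, and its log2 fold change was 2.38 as well. XLOC_045853, 43 bases beyond the lectin gene Cd209c, and XLOC_033607, 707 bases beyond Cavin4, a muscle caveolae gene, both fell with their neighbours, by 3.16 and 2.14 on the log2 scale. XLOC_018461, 11 bases beyond the adenylate cyclase gene Adcy9, fell to 9.46 ± 1.14 CPM in IMQ, against 16.0 ± 0.915 CPM in vaseline. XLOC_029721, 3 bases beyond Plekho1, was the pair that differed in sign: its log2 fold change was -0.51, where Plekho1 had 0.42, and its call was lost in 5 of the 6 fits without 1 library, with adjusted p up to 0.109.

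Some loci farther from a gene changed in the opposite direction. XLOC_028984 (chr3:10142918-10148960, plus strand), 61251 bases beyond the fatty acid-binding protein gene Fabp5, had 0.239, 0.248 and 0.255 CPM in the IMQ with bergapten libraries, 0.260, 0.215 and 0.254 in the IMQ libraries and 8.16, 8.29 and 6.77 in the vaseline libraries (log2 fold change -4.95, SE 0.26, adjusted p = 9.7e-07). Fabp5 had 1001, 1405 and 1281 CPM in the IMQ with bergapten libraries, 1304, 892 and 1343 in the IMQ libraries and 237, 264 and 208 in the vaseline libraries. In vaseline the locus was above and Fabp5 below all 6 libraries with IMQ, and the IMQ with bergapten and IMQ groups overlapped in both. XLOC_018712, 34523 bases upstream of Tprg, fell (log2 fold change -3.70, SE 0.42, adjusted p = 8.64e-05; -4.42 without IMQ replicate 1) and Tprg rose (1.66 on the log2 scale). XLOC_008937, 100270 bases from the cytoskeletal gene Septin9, fell (log2 fold change -5.19, SE 0.82, adjusted p = 0.000754; -6.32 without IMQ replicate 3) where Septin9 rose by 0.59. XLOC_041092, 47402 bases from C1galt1, a gene of O-glycan synthesis, rose (log2 fold change 4.93, SE 0.47, adjusted p = 2.78e-05) where C1galt1 fell by 0.36.

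Few loci differed between IMQ with bergapten and IMQ, and the count was not stable. Of the 474 tested, 3 were higher and 18 lower in IMQ with bergapten than in IMQ. That is 4.43% of members, where 4.83% of all rows passed, 2.18% higher and 2.65% lower. The median log2 fold change was -0.18 over members and -0.0045 over all rows, and groups did not overlap for 129 members, or 27.2%, against 26.5% of all rows. At an unadjusted p under 0.05 there were 114 members, or 24.1%, against 22.3% of all rows. Without IMQ with bergapten replicate 1, 0 members passed by edgeR at an adjusted p under 0.05, while 100 had an unadjusted p under 0.05. Without replicate 2 of that group 1 was higher and 4 lower, and without replicate 3 they were 1 and 1. Without IMQ replicate 3, 8 were higher and 47 lower, without IMQ replicate 1 they were 4 and 10, and without IMQ replicate 2 they were 4 and 16. DESeq2 called 7 higher and 54 lower. None of the 21 calls held in all 6 fits that each left out 1 library, the most being 5 for XLOC_029721. Shares of all rows called in these fits are not given here, so the shifts cannot be read as particular to assembled loci.

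The 18 lower loci included 11 that had risen in IMQ against vaseline, 2 that had fallen and 5 that did not pass there. The same split over all rows is not given here, so it cannot be read as particular to assembled loci. Of the 18, 15 were highest in IMQ replicate 2 among the IMQ libraries. Over all members tested that library was the highest of the 3 IMQ libraries for 46.0%, against 37.0% of all rows. The summed level of the hair follicle markers ran from 12.0 to 45.6 CPM in IMQ with bergapten, 4.20 to 631 in IMQ and 20.4 to 26.2 in vaseline, and its part was not tested. Which IMQ library held the 631 CPM is not given here, so that level cannot be tied to IMQ replicate 2. The comparisons share their IMQ libraries, so a high IMQ library moves both. In IMQ against vaseline, the calls of XLOC_011919, XLOC_031855, XLOC_034758, XLOC_055537, XLOC_029721 and XLOC_011534 were lost in 4 or 5 of the fits without 1 library. XLOC_050457, described above near Pias1, fell to 0.119 CPM or lower in every IMQ with bergapten library (log2 fold change -4.57, SE 0.85, adjusted p = 0.0194). It had 105 counts in IMQ, 4 in IMQ with bergapten and 1 in vaseline. It thus passed the threshold on summed counts through IMQ and was selected to differ in this comparison too. Its fold and p-value carry the limit given for IMQ against vaseline. That limit also holds for XLOC_011641, described below, which was near 0 in IMQ. XLOC_023746 near Gstp3 fell to 337 ± 77.3 CPM in IMQ with bergapten, against 955 ± 332 CPM in IMQ (log2 fold change -1.50, SE 0.25, adjusted p = 0.017), and its adjusted p was up to 0.0756 without 1 library. Its groups did not overlap, with 411 CPM at most in IMQ with bergapten and 736 CPM at least in IMQ.

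XLOC_002870 (chr1:149382214-149392371, minus strand) and XLOC_003441 (chr1:149462519-149463365, no strand given) lie in the same interval of chromosome 1 without a nearby gene. XLOC_002870 had 15.4, 16.8 and 12.8 CPM in the IMQ with bergapten libraries, 34.9, 52.3 and 33.3 in the IMQ libraries and 22.9, 10.6 and 13.2 in the vaseline libraries. XLOC_003441 had 0.537, 0.893 and 0.560 CPM in the IMQ with bergapten libraries, 1.97, 2.48 and 2.08 in the IMQ libraries and 0.274, 0.326 and 0.416 in the vaseline libraries. In both, IMQ stood above the other groups, and both were lower with bergapten (adjusted p = 0.0305 and 0.0206). XLOC_022309, beyond the zinc finger gene Zfp51, had 21.1, 30.9 and 23.2 CPM in the IMQ with bergapten libraries, 56.3, 72.8 and 39.5 in the IMQ libraries and 23.5, 31.3 and 32.2 in the vaseline libraries. XLOC_027635, upstream of Hnrnpa3 on the other strand, had 2.74, 3.87 and 5.45 CPM in the IMQ with bergapten libraries, 12.7, 20.5 and 11.6 in the IMQ libraries and 4.54, 6.20 and 9.74 in the vaseline libraries. IMQ was the highest group for both, and with bergapten they fell by 1.16 and 1.89 on the log2 scale (adjusted p = 0.0293 and 0.0205). XLOC_024637 beside Ms4a4a was lower with bergapten as well (log2 fold change -0.91, SE 0.20, adjusted p = 0.0346), as was Ms4a4a (log2 fold change -0.75, SE 0.18, adjusted p = 0.0427). The locus stayed above vaseline in every library.

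Other loci were lower with bergapten too, and some of them averaged highest in vaseline. XLOC_011521 (chr12:23073895-23076472, no strand given) had 1.19, 2.93 and 2.24 CPM in the IMQ with bergapten libraries, 8.56, 16.8 and 4.41 in the IMQ libraries and 16.4, 22.2 and 17.9 in the vaseline libraries (log2 fold change -2.21, SE 0.49, adjusted p = 0.0402). XLOC_045764 (chr7:17272100-17276780, no strand given) had 1.31, 3.62 and 1.68 CPM in the IMQ with bergapten libraries, 8.82, 16.3 and 4.62 in the IMQ libraries and 16.7, 17.2 and 20.1 in the vaseline libraries (log2 fold change -2.15, SE 0.49, adjusted p = 0.0453). XLOC_034758 (chr4:147022481-147022986, no strand given), near the zinc finger gene Zfp989, had 0.239, 0.546 and 0.458 CPM in the IMQ with bergapten libraries, 1.82, 4.85 and 1.12 in the IMQ libraries and 5.09, 6.73 and 6.89 in the vaseline libraries (log2 fold change -2.60, SE 0.56, adjusted p = 0.0345). These 3 have no strand, average highest in vaseline, and have IMQ replicate 2 as the highest IMQ library. Without IMQ replicate 2, XLOC_011521 had a log2 fold change of -1.59 and XLOC_034758 of -1.78. XLOC_009249 and XLOC_055537, of which XLOC_055537 is on chromosome Y, showed the same order of means at 0.214 ± 0.0218 and 0.103 ± 0.0446 CPM in IMQ with bergapten, against 1.09 ± 0.414 and 0.523 ± 0.160 CPM in IMQ (adjusted p = 0.0332 and 0.0442). XLOC_011919 and XLOC_031855, which had risen in IMQ, averaged 0.270 and 0.334 CPM in IMQ with bergapten, against 1.49 and 1.45 CPM in IMQ (adjusted p = 0.0438 and 0.0348). Without IMQ replicate 1, XLOC_011919 had a log2 fold change of -1.66 and did not pass. XLOC_012144, upstream of the cell cycle gene Cks2, fell by 1.72 on the log2 scale (adjusted p = 0.0313), while Cks2 did not pass. The other 3 were XLOC_038003 (chr5:94664104-94668923, no strand given), XLOC_021715 beyond H2-Q10 and XLOC_034762 beyond H6pd, with log2 fold changes of -1.47, -1.24 and -1.01 (adjusted p = 0.0494, 0.0399 and 0.0267). H6pd, which encodes an enzyme of the endoplasmic reticulum, was lower as well (log2 fold change -0.79, SE 0.16, adjusted p = 0.0249).

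The 3 loci that rose with bergapten had all fallen in IMQ against vaseline, again without the same split over all rows. XLOC_029721 (chr3:95889719-95895738, plus strand) had 14.7, 12.9 and 11.5 CPM in the IMQ with bergapten libraries, 5.61, 5.44 and 7.76 in the IMQ libraries and 8.27, 9.73 and 8.85 in the vaseline libraries (log2 fold change 1.05, SE 0.18, adjusted p = 0.015), and Plekho1, whose end lies 3 bases away on the other strand, did not pass (adjusted p = 0.0923). XLOC_011641 (chr13:12282036-12284279, plus strand), 33 bases beyond the muscle alpha-actinin gene Actn2 on the other strand, had 0.358, 0.844 and 0.509 CPM in the IMQ with bergapten libraries, 0.104, 0 and 0.101 in the IMQ libraries and 0.986, 1.11 and 1.31 in the vaseline libraries (log2 fold change 2.94, SE 0.68, adjusted p = 0.0387). Actn2 had 133, 165 and 139 CPM in the IMQ with bergapten libraries, 161, 182 and 183 in the IMQ libraries and 279, 335 and 276 in the vaseline libraries, with overlap between IMQ with bergapten and IMQ. XLOC_011534 had 3.10, 4.47 and 3.62 CPM in the IMQ with bergapten libraries, 1.82, 0.915 and 1.52 in the IMQ libraries and 2.14, 3.07 and 2.37 in the vaseline libraries (log2 fold change 1.39, SE 0.30, adjusted p = 0.0313), and its fall in IMQ against vaseline was lost in 5 of the 6 fits without 1 library.

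**Figure D5:**
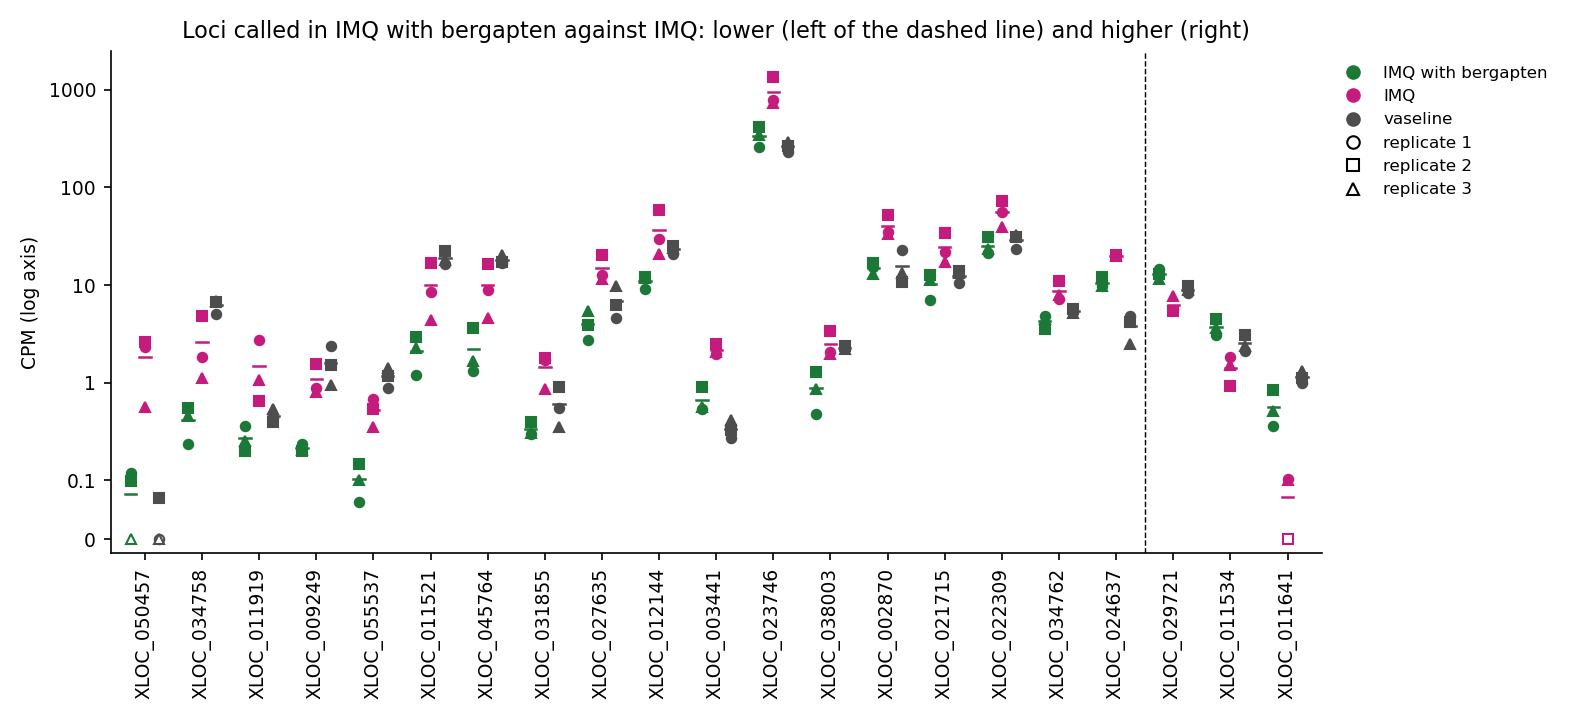
CPM of the 21 loci called in IMQ with bergapten against IMQ, on a log axis with libraries at 0 drawn as open markers at the bottom, 18 lower on the left of the dashed line and 3 higher on the right, each with 1 point per library and a bar at each group mean above the bottom tick. IMQ replicate 2 (squares) is the highest IMQ library in 15 of the 18 lower loci.

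Against vaseline, skin with IMQ and bergapten differed in both directions. Of the 474 tested, 67 loci were higher and 90 lower. That is 33.1%, where 40.4% of all rows passed, 20.9% higher and 19.5% lower. The median log2 fold change was -0.02 over members and 0.0072 over all rows, and groups did not overlap for 223 members, or 47.0%, against 59.2% of all rows. The 4 largest rises were XLOC_029857, XLOC_014047, XLOC_006548 and XLOC_032142, at least 46.7-fold for XLOC_029857 and 196-fold higher (95% counting interval 34.8 to 7784) for XLOC_014047. XLOC_014047 had more in every IMQ with bergapten library than in any IMQ library, which did not pass (adjusted p = 0.0837). The largest falls included XLOC_050614, XLOC_031018 (log2 fold change -7.57, SE 0.88, adjusted p = 0.00041) and XLOC_030724. XLOC_032233 (chr4:56057794-56059063, plus strand), 525328 bases from the epidermal transcription factor gene Klf4, had no read with IMQ and bergapten and was at least 34.4-fold lower (adjusted p = 0.000584), with 0, 0 and 0 CPM in the IMQ with bergapten libraries, 0, 0.215 and 0.101 in the IMQ libraries and 1.42, 2.22 and 1.90 in the vaseline libraries. Loci at or near 0 in a group, XLOC_032233 among them, were selected to differ in this comparison as well. Their folds and p-values carry the limit given for IMQ against vaseline. This comparison shares its vaseline libraries with IMQ against vaseline, so the lists are not independent.

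By the ratio of the highest to the lowest CPM within a group averaging at least 1 CPM, the 4 loci with the widest spread had a vaseline library at 0 and another at 2.90 to 5.70 CPM. XLOC_028924 (chr2:154965632-154966361, no strand given) and XLOC_051198 (chr9:90740939-90741833, no strand given) had 5.70 and 4.33 CPM in vaseline replicate 3, against 0.0653 CPM or less in the other vaseline libraries, and were not tested. XLOC_051166 (chr9:26012055-26012949, no strand given) had 1.61, 0.0496 and 1.12 CPM in the IMQ with bergapten libraries, 4.57, 8.18 and 5.43 in the IMQ libraries and 2.90, 0 and 0.178 in the vaseline libraries. Its IMQ libraries were above all others, yet the comparison with vaseline did not pass (adjusted p = 0.111), and it did without vaseline replicate 1 (log2 fold change 5.90). XLOC_003388 (chr1:45772776-45775447, no strand given) had 8.41, 0.695 and 1.38 CPM in the IMQ with bergapten libraries, 0.986, 1.02 and 2.64 in the IMQ libraries and 3.01, 0 and 2.55 in the vaseline libraries, with the groups overlapping and 1 high library in IMQ with bergapten.

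Loci lay close on both sides of the threshold of 90 counts. Just inside it, XLOC_020054 and XLOC_051198 had 90 counts and XLOC_027178 had 91, and just outside it XLOC_053923, XLOC_014067 and XLOC_041143 had 89 each. The 964 assembled loci under 90 counts held 2.89% of the counts on assembled loci. Of the members, 165 would fall under 90 if 1 of the groups were left out, and 5 reached it in IMQ with bergapten alone, 11 in IMQ alone and 30 in vaseline alone. Members chosen through 1 high group had to differ, so the counts of changed loci include what the rule selected.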

How the data were processed

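Total RNA from 9 back skin libraries was sequenced. Per the submitters' processing notes, Trimmomatic, HISAT2 and HTSeq 0.6.0 were used on GRCm39, and the assembler behind the assembled identifiers is not given in the sources used here. The authors deposited raw read counts per row and, beside them, FPKM values, and the quality sheet gives raw read counts. Of 56861 rows, 2 name no gene and were left out. The members, gene lists and named loci were chosen with earlier results of these data known. CPM here is the count over library size times the TMM factor. The tests came from edgeR (version 4.0.16, run in R version 4.3.3), with its robust quasi-likelihood fit of group means over all 9 libraries and TMM scaling. filterByExpr (min.count 10, min.total.count 15) kept 18005 rows, with Benjamini-Hochberg adjustment over all of them and a threshold of 0.05. SE is the absolute log2 fold change over the square root of F. FPKM only compares levels between rows. Folds against groups with no count use a floor of 3 counts over the group. Intervals are exact conditional (Clopper-Pearson, 95%) and, like the floor, cover counting error only, because reads without molecular identifiers are not independent molecules. The nearest named gene is the row with the smallest gap whose symbol is not a Gm number, Rik clone name or bare ID. Named loci are the 10 highest, the 8 largest rises and falls past the threshold without overlap and with at least 0.5 CPM in the higher group (4 in IMQ with bergapten against vaseline), up to 4 opposite to their neighbour, up to 2 per gene list, 3 on either side of the threshold, and 4 with the widest spread within a group. Further loci (the pairs within 1 kb, the others called with bergapten and the 9 high in 1 library) were named after their values were seen.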

Additional observations from a re-analysis of the deposited data

How the results depend on the processing

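The share test cannot pass with 3 libraries a group, and low loci rest on few reads, so a locus under 1 CPM can gain or lose a call through 1 library. RLE size factors, no filter on low counts, leaving out Rn18s, and memberships at 45 or 180 counts kept all 6 counts of loci within 1.5 times. Leaving out 1 library gave 66 to 97 higher and 53 to 79 lower loci in IMQ against vaseline, 0 to 8 higher and 0 to 47 lower in IMQ with bergapten against IMQ, and 51 to 70 higher and 64 to 79 lower in IMQ with bergapten against vaseline. These ranges have no counts over all rows beside them. For IMQ with bergapten against IMQ, testing only assembled loci gave 0 higher and 0 lower by edgeR, with 103 members at an unadjusted p under 0.05. Using only the 6 libraries compared gave 0 higher and 4 lower, and DESeq2 7 higher and 54 lower. Leaving out members within 200 bases of a named gene, chosen after seeing the data, gave 1 higher. The difference in share of counts without 1 library ranged from 0.109 to 0.186 percentage points in IMQ against vaseline, -0.174 to 0.0116 in IMQ with bergapten against IMQ, and -0.0174 to 0.169 in IMQ with bergapten against vaseline, and without the 9 loci high in 1 library the last was -0.0103. Without 1 library the log2 fold change of XLOC_003388 in IMQ with bergapten against IMQ ran from -0.59 to 1.77. That of XLOC_031751 ran from -0.043 to 3.15 and that of XLOC_048341 from -0.11 to 3.16 there, and against vaseline they ran from -0.22 to 2.97 and from -0.20 to 3.07. XLOC_031017 and XLOC_037468 give no value without IMQ with bergapten replicate 1, since both groups are then at 0. The cause of the other moves was not tested. The share of loci with the sign of their nearest gene in IMQ against vaseline was 62.3% without IMQ replicate 2, with no share of annotated rows beside it.

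Replicate numbers were not found to pair the libraries: correlations of deviations from group means between same-numbered libraries ran from -0.091 to 0.176. With the replicate number as a block, 1 locus was higher and 19 were lower in IMQ with bergapten against IMQ, and the other 4 counts stayed within 1.5 times.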
